A study of Mus musculus with 30 samples.

Results

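The genes that encode the collagen chains of mouse white fat were described in 30 strand-specific mRNA libraries. They were chosen by name alone: every gene of the count table whose symbol has the form of a collagen chain, from Col1a1 to Col28a1, and which the reference annotation calls protein-coding. This rule found 44 of the 35120 genes in the table, and it used no measured value.

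The libraries were made from white fat of mice in which the gene for β-catenin, Ctnnb1, carries floxed alleles (Ctnnb1fl/fl, the controls) and from mice labelled Ctnnb1AdKO. Every library names both epididymal and posterior subcutaneous depots as its source, those from females included. After digestion with collagenase, floating adipocytes were separated from pelleted stromal-vascular cells (SVC), a mixture of progenitors, fibroblasts, vascular and immune cells. There were 6 control and 5 Ctnnb1AdKO libraries of male adipocytes, 3 control and 4 Ctnnb1AdKO libraries of male SVC, and 6 control and 6 Ctnnb1AdKO libraries of female adipocytes. All groups are thus described as carrying the floxed alleles or their deletion, and controls were matched by sex and age, with no age given. Neither the promoter behind the deletion nor the targeted exons are named in the labels. Replicates are numbered but not stated to be separate mice, so p-values measure the spread between these libraries, which may be partly technical.

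Collagens are trimeric proteins of the extracellular matrix, built from chains that wind into a triple helix. Fibrillar collagens form the load-bearing fibres of the stroma, type IV collagens form the sheet of the basement membrane that surrounds each adipocyte and each capillary, and type VI collagens form beaded filaments between them. Smaller families sit on fibril surfaces (FACIT collagens), in the zone next to basement membranes (multiplexins), in short-chain networks or in the plasma membrane. In fat, fibroblasts, progenitors, adipocytes and vascular cells all make collagen chains, and the amount and type of collagen around adipocytes are known to bear on how far the cells can enlarge.

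The coding sequence shows what sets the fibrillar chains apart. A triple helix needs a glycine in the opening place of every Gly-X-Y triplet, and fibrillar chains had the longest unbroken runs. The other classes overlapped in this length, with 45 triplets in Col6a3 and 43 in Col23a1 as examples. The longest run held 338 triplets in Col1a1, 217 in Col27a1 and 40 in Col4a1, whose repeats were spread over 23 stretches. Stretches of 90 coding bases, from the GENCODE M21 transcripts, show this pattern for the chain of the main fibrillar collagen, for the gene called by genotype in female adipocytes and for a basement membrane chain. Capitals mark each glycine codon. The Col1a1 and Col27a1 stretches are the start of the longest run, and the Col4a1 stretch spans a break, where the spacing of the capitals is lost.
Col1a1: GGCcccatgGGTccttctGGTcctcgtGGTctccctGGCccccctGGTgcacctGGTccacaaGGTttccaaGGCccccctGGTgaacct
Col27a1: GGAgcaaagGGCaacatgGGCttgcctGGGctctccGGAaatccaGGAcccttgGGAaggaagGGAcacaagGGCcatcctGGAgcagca
Col4a1: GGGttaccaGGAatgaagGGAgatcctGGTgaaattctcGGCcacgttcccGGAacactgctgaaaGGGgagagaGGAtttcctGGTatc

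Library totals lay between 20484836 and 22209603 counts. Ctnnb1 itself showed no drop with the knockout label: its mean was 326 ± 11.7 (SD, n = 6) CPM (counts scaled to the library total) in control and 328 ± 23.2 (n = 5) in knockout male adipocytes, 320 ± 22.6 (n = 6) and 329 ± 30.5 (n = 6) in female adipocytes, and 513 ± 61.8 (n = 3) and 530 ± 164 (n = 4) in SVC. A count per gene does not show which exons were covered, so the deletion could not be checked here, and below "knockout" always means a library labelled so. The fractions carried the markers of their names: 8 summed adipocyte markers ran from 29770 to 52190 CPM in adipocyte libraries and from 983 to 2168 CPM in SVC, and 10 progenitor and fibroblast markers ran from 473 to 1009 CPM in adipocyte libraries and from 6184 to 10970 CPM in SVC. A pair of SVC libraries stood apart in a few low collagens: control 1 had 110 CPM of Col6a4 and knockout 4 had 52.9 CPM of Col22a1, 28.9 CPM of Col2a1 and 11.9 CPM of Col20a1. In bulk libraries, fewer cells of a type and less RNA per cell cannot be told apart.

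Levels are given as CPM and, where genes are compared, as CPM per kilobase (kb) of the longest protein-coding transcript. In male adipocytes the basement membrane chain Col4a1 and the multiplexin Col15a1 led. Over the 11 libraries, Col4a1 stood at 176 ± 23.5 CPM per kb (SD), Col15a1 at 158 ± 30.8, Col4a2, its partner in the same trimer, at 105 ± 17.2, the type V chain Col5a3 at 73.2 ± 20.0 and the type VI chain Col6a1 at 54.2 ± 19.2. Neighbours in this order overlapped in range. Female adipocytes (12 libraries) had the same leader, and Col6a1 moved up to the third place at 144 CPM per kb, after Col4a1 at 205 and Col15a1 at 182 and before Col4a2 at 116 and Col6a2 at 114.

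SVC had another order. Its leaders over 7 libraries were the stromal fibre chains Col3a1 at 488 ± 75.5 CPM per kb and Col1a2 at 433 (317 to 556), followed by Col6a1 at 261 ± 64.8, Col6a2 at 224 ± 56.7 and Col4a1 at 208 ± 54.6. Neighbours in this order overlapped in range. The ratio of Col4a1 to Col3a1 per length summarises the contrast: it averaged 3.96 ± 0.331 (SD, n = 6) in control male adipocytes, 1.92 ± 0.173 (n = 6) in control female adipocytes and 0.418 ± 0.0659 (n = 3) in control SVC, and the 3 ranges did not overlap. At the other end, 9 of the 44 genes were too low to test anywhere, among them Col10a1 of growth plate cartilage, with 2 counts in all libraries together, and Col2a1 of cartilage, with 619 of its 753 counts in SVC knockout library 4.

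**Figure D1:**
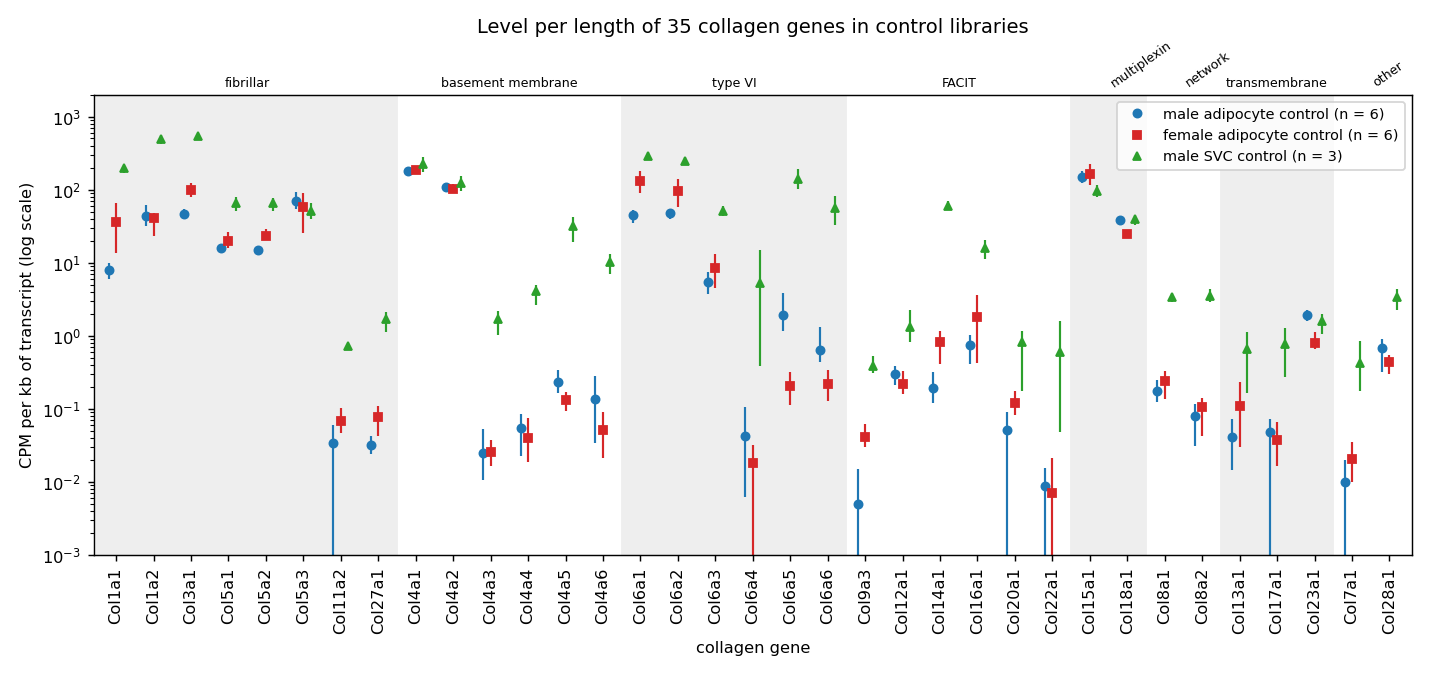
Level of each collagen gene in the 3 control groups, as CPM per kb of transcript on a logarithmic axis, with the mean as a point and the range over libraries as a bar, and genes grouped by class. A bar that reaches the edge of the axis includes a library at 0. Col4a1 and Col15a1 lead in adipocytes of both sexes, and Col3a1 and Col1a2 lead in SVC.

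All 44 genes together took 0.457 ± 0.032% of the counts in control male adipocytes (SD, n = 6), 0.564 ± 0.0955% in control female adipocytes (n = 6) and 1.67 ± 0.276% in control SVC (n = 3). With the knockout label the shares were 0.4934 ± 0.108% (n = 5), 0.681 ± 0.132% (n = 6) and 1.36 ± 0.289% (n = 4), and every pair of ranges overlapped. Within the collagen counts, basement membrane chains held 41.4 ± 1.06% in control male adipocytes and 15.7 ± 1.198% in control SVC, and fibrillar chains held 26.1 ± 0.461% and 48.7 ± 2.08%. The basement membrane share ran from 34.5 to 37.4% in knockout male adipocytes, below the 40.0 to 42.4% of their controls, and this is a description with no test. In female adipocytes it ran from 30.0 to 40.9% in controls and from 27.7 to 37.1% in knockouts, which overlapped.

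The first comparison set adipocytes against SVC in male controls. Most collagen chains were much lower in adipocytes, while Col15a1, Col18a1, Col5a3 and Col23a1 were higher, Col18a1 narrowly and not with scaling to library totals alone. Of the 35 genes with enough counts to test, 29 were lower and 4 were higher in adipocytes (edgeR's quasi-likelihood test, Benjamini-Hochberg adjusted p below 0.05 over all 17251 genes), against 44.2% of all tested genes lower and 32.8% higher. The median log2 difference was -3.39 over the tested collagens and -0.29 over all tested genes. The 9 other collagens were not tested, and 3 to 6 libraries a group limit the lowest ones.

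**Figure D2:**
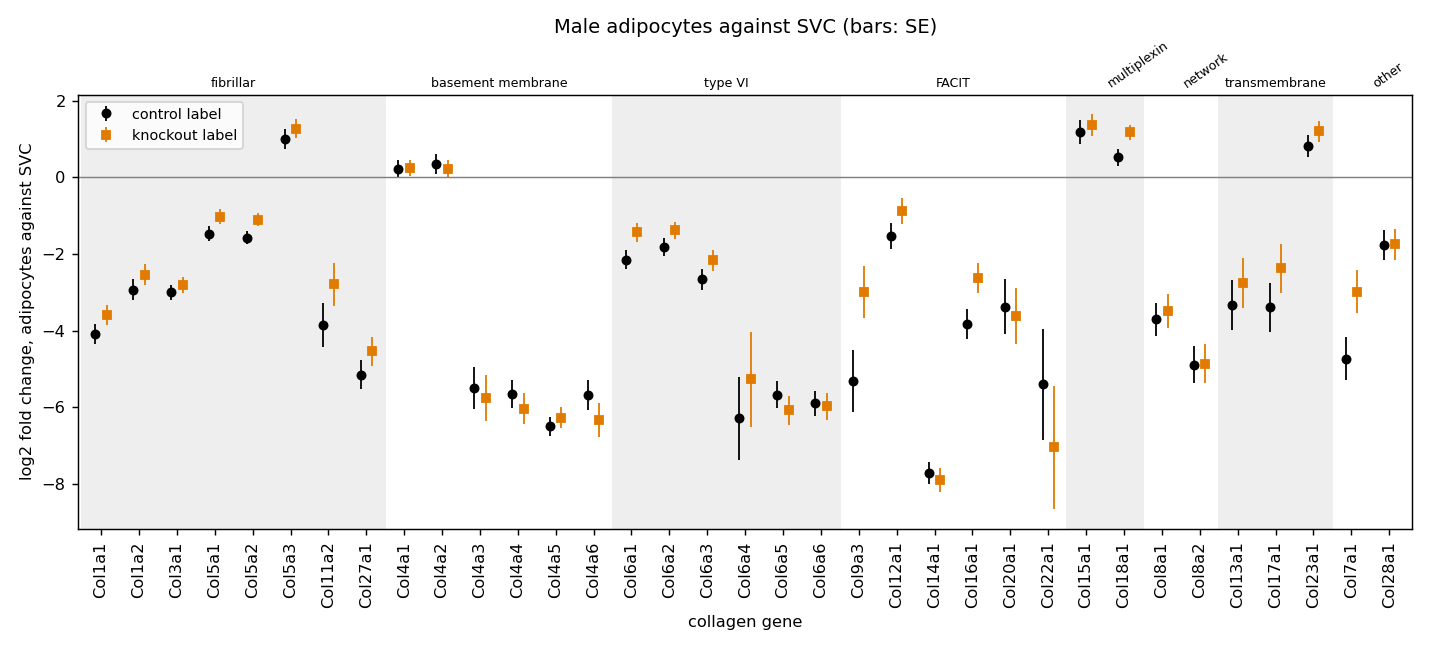
Log2 difference of each tested collagen gene between male adipocytes and male SVC, in controls and in libraries labelled knockout, with standard errors, from the edgeR fit of 18 male libraries. Most genes lie well below 0 in both, and Col15a1, Col5a3, Col23a1 and Col18a1 lie above it with TMM scaling; with library totals alone Col18a1 in controls was at -0.04.

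Among fibrillar chains, 7 of 8 tested were lower in adipocytes and 1 was higher. Col3a1, the homotrimeric collagen of soft tissue and the highest fibrillar chain per length in SVC, measured 3089, 3154 and 2711 CPM in the control SVC libraries and 219, 249 and 300 CPM (lowest, median, highest of 6) in control adipocytes. The ranges were far apart, and the log2 difference was -3.00 ± 0.20 (SE, adjusted p = 7e-10, edgeR). Col1a1 and Col1a2, which form type I collagen together, did not fall alike: Col1a1 was at 4.04% and Col1a2 at 8.94% of its mean SVC level by CPM. The ratio of Col1a1 to Col1a2 per length ran from 0.123 to 0.286 in control male adipocytes and from 0.370 to 0.433 in control SVC, with no overlap.

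Col5a3 went the other way from its type V relatives. This chain joins Col5a1 and Col5a2 in some type V trimers, which start and limit the growth of type I fibrils. Control adipocytes held 331, 377 and 561 CPM (lowest, median, highest) and control SVC held 294, 394 and 244 CPM, so the groups overlapped in CPM. The log2 difference was 1.006 ± 0.26 (adjusted p = 0.00226, edgeR), while Col5a1 fell by 1.47 and Col5a2 by 1.57 on the log2 scale. Per length, Col5a3 was at 4.31 ± 1.04 times Col5a1 in control adipocytes and at 0.775 ± 0.0403 times Col5a1 in control SVC.

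Type IV chains split by gene pair. These genes lie in head-to-head pairs: Col4a1 with Col4a2, whose trimer is in nearly all basement membranes, Col4a3 with Col4a4, known from the kidney glomerulus, and Col4a5 with Col4a6. Col4a1 measured 1117, 1187 and 1277 CPM in control adipocytes and 1477, 1840 and 1166 CPM in control SVC, which overlapped. Its log2 difference of 0.23 ± 0.22 and that of Col4a2, 0.35 ± 0.25, were not called (adjusted p = 0.337 and 0.222, edgeR). The 95% intervals were -0.19 to 0.66 for Col4a1 and -0.15 to 0.85 for Col4a2. Col4a2 was called when the fit held these 2 groups alone (0.36, adjusted p = 0.0469).

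The 4 other type IV genes were all lower in adipocytes. Col4a5 measured 1.08, 1.52 and 2.17 CPM in control adipocytes (lowest, median, highest) against 215, 276 and 124 CPM in control SVC, a log2 difference of -6.50 ± 0.25 (adjusted p = 4.37e-12, edgeR). The fit gave -5.68 for Col4a6, -5.66 for Col4a4 and -5.50 for Col4a3. In CPM, these 4 genes stood at 0.745 to 1.46% of their mean SVC level.

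The promoters of the first pair are shown because the genes share one. In the RefSeq windows for GRCm38.p6, which hold 250 bases before and 50 after each annotated start, the starts of Col4a1 and Col4a2 are 21 bases apart on opposite strands, and the windows share 78 bases, in capitals. Col4a1 is printed on the minus strand at chr8:11312777-11313076 and Col4a2 on the plus strand at chr8:11312555-11312854, so the capitals are reverse complements. Their first exons overlap by 22 bases in the annotation, on opposite strands.
Col4a1: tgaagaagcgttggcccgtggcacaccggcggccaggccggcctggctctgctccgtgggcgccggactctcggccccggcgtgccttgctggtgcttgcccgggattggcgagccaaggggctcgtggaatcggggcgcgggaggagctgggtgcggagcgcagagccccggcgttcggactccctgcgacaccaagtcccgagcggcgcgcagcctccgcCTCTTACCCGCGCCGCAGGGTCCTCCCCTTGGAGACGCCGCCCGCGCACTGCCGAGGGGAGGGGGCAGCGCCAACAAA
Col4a2: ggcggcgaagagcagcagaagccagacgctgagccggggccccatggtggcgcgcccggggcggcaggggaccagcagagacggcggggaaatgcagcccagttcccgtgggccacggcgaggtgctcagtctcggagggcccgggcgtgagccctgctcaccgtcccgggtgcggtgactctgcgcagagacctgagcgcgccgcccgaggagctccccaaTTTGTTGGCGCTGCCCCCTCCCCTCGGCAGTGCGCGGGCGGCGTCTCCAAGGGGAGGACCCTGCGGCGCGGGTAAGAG
The ratio of Col4a1 to Col4a2 per length lay between 1.42 and 2.07 in all 30 libraries. The starts of Col4a3 and Col4a4 are 72 bases apart and those of Col4a5 and Col4a6 are 1309 bases apart.

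All 6 type VI chains were lower in adipocytes. Col6a1 and Col6a2, the chains common to every type VI trimer, lie next to each other on chromosome 10. Col6a1 measured 142, 185 and 213 CPM in control adipocytes and 1204, 1355 and 1031 CPM in control SVC, with no overlap, and differed by -2.15 ± 0.25 (log2, adjusted p = 4.99e-07, edgeR). Col6a2 differed by -1.81 and Col6a3, the source of the cleaved fragment endotrophin, by -2.66.

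The alternative chains Col6a4, Col6a5 and Col6a6 lie in a row on the same strand of chromosome 9, and they differed by more. Col6a5 measured 1214, 1781 and 948 CPM in control SVC and 10.8, 14.4 and 35.7 CPM in control adipocytes, a log2 difference of -5.67 ± 0.35 (adjusted p = 3.26e-10, edgeR). Per length, Col6a5 exceeded Col6a3 2.77 ± 0.397 times in control SVC and was at 0.357 ± 0.184 times it in control adipocytes. Col6a6 differed by -5.90. Col6a4 differed by -6.29 ± 1.09 (adjusted p = 6.5e-05), and its SVC level rested on SVC control 1: control SVC measured 110, 3.96 and 2.79 CPM, against 0.0450, 0.294 and 0.769 CPM in control adipocytes. Without that library the log2 difference was -2.95 (adjusted p = 0.00495).

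All 6 tested FACIT collagens were lower in adipocytes. Col14a1, which coats fibril surfaces, had the most negative log2 difference of the tested collagens, -7.72 ± 0.28 (adjusted p = 2.07e-12, edgeR). It measured 457, 349 and 346 CPM in control SVC and 0.768, 1.16 and 2.04 CPM in control adipocytes, so its adipocyte mean was 0.325% of that in SVC. Col16a1, the FACIT chain of highest level per length in control adipocytes, measured 2.13, 4.42 and 5.25 CPM there and 105, 83.5 and 57.5 CPM in control SVC, a log2 difference of -3.82 ± 0.39 (adjusted p = 1.52e-07). For Col22a1, a FACIT collagen known from tissue junctions, the call rested on SVC control 1: control SVC measured 14.1, 1.499 and 0.419 CPM, the log2 difference was -5.40 ± 1.45 (adjusted p = 0.00297), and without that library it was -3.06 (adjusted p = 0.0757). With the replicate block the adjusted p was 0.0536.

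Both multiplexins were higher in adipocytes, though Col18a1 turned to -0.04 with library totals alone. Col15a1, which bridges basement membranes and the fibres beside them, measured 640, 764 and 939 CPM in control adipocytes (lowest, median, highest) and 412, 590 and 470 CPM in control SVC. No adipocyte library lay below an SVC library, and the log2 difference was 1.18 ± 0.31 (adjusted p = 0.00211, edgeR). Col18a1, the source of endostatin, measured 202, 205 and 234 CPM in adipocytes and 251, 222 and 181 CPM in SVC, which overlapped, and its call was narrow (log2 difference 0.52 ± 0.22, adjusted p = 0.0365). It was also lost without adipocyte control 1 or 6 and without any 1 of the 3 SVC controls (adjusted p from 0.0578 to 0.0899), with upper-quartile scaling (0.0978) and with a filter at a mean of at least 1 CPM (0.0543), and its adjusted p with the replicate block was 0.194.

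Transmembrane, network and nerve-associated chains were low in both fractions. Col23a1, a transmembrane collagen, measured 9.05, 11.1 and 12.7 CPM in control adipocytes and 10.2, 11.2 and 5.86 CPM in control SVC, and its log2 difference was 0.83 ± 0.29 (adjusted p = 0.0147, edgeR; 0.084 with the replicate block). Without SVC control 3 it was not called either (0.68, adjusted p = 0.0764). These groups overlapped. Col8a1, a short-chain network collagen known from vessel walls, fell by 3.70 on the log2 scale, from 19.3, 17.6 and 14.6 CPM in control SVC to 0.630, 0.836 and 1.27 CPM in control adipocytes. Col28a1, known from peripheral nerve, fell by 1.77, from 15.5, 18.5 and 9.49 CPM to 1.35, 3.12 and 3.81 CPM. These 2 genes did not overlap between fractions.

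The direction of the smaller differences depended on scaling. TMM factors were 0.817 to 0.913 in adipocyte and 1.10 to 1.40 in SVC libraries of this fit, and with library totals alone the median of all genes shifted to -0.85 and the count went to 30 of 35, 1 higher and 29 lower. Col15a1 then stayed called at 0.64 (adjusted p = 0.0457). Col5a3 went to 0.44 (0.11), Col23a1 to 0.25 (0.44), Col18a1 to -0.04 (0.864), Col4a1 to -0.33 (0.135) and Col4a2 to -0.22 (0.408), none of them called.

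Markers of other cells were also called between the fractions, where 44.2% of all tested genes were lower in control adipocytes. Of the progenitor and fibroblast markers, 9 of 10 were lower in control adipocytes, at 488 to 681 CPM summed against 8306 to 10970 CPM in control SVC. Endothelial markers were lower for 4 of 8 (188 to 427 against 705 to 1422 CPM), macrophage markers for 8 of 8 (440 to 903 against 4843 to 9177 CPM), and pericyte and smooth muscle markers for 6 of 8 with 1 higher (151 to 250 against 505 to 1315 CPM). No marker of these 4 lists was at 0 in every control adipocyte library. Epithelial markers were lower for 4 of 4 tested (0.585 to 7.87 against 67.1 to 411 CPM), with SVC control 1 highest. Mesothelial markers were lower for 6 of 6, lymphocyte markers for 6 of 6 and erythroid markers for 5 of 5. Skeletal muscle markers went both ways, 1 higher and 1 lower of 3 tested, and their sum was higher in adipocytes (31.6 to 69.6 against 3.54 to 6.19 CPM). No Schwann cell marker of 4 tested was called. The mean marker sum in adipocytes was 6.13% of that in SVC for progenitors, 21.7% for pericytes and 29.4% for endothelial cells. The means of the tested collagens ran from 0.325% for Col14a1 to 156% for Col15a1. The part of the other cells in the collagen counts of the adipocyte libraries was not tested.

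The libraries labelled knockout gave the same division. They share none with the controls, but both were tested in the same fit, with a shared filter, scaling and estimate of the spread. Of 35 tested genes, 29 were lower and 4 higher in adipocytes, against 44.7% and 31.8% of all tested genes, and these were the same 29 and the same 4 genes as in controls. The median log2 difference was -2.79 over the tested collagens and -0.29 over all tested genes. Col15a1 was at 1.36 ± 0.28, Col5a3 at 1.27 ± 0.24, Col23a1 at 1.21 ± 0.27 and Col18a1 at 1.17 ± 0.21 (adjusted p = 0.00035, 0.000171, 0.00068 and 6.96e-05, edgeR), and all of them stayed called with library totals alone. Col4a1 was at 0.24 ± 0.20 and Col4a2 at 0.21 ± 0.24 (adjusted p = 0.287 and 0.423), and without SVC knockout 1 Col4a2 was called at 0.51 (adjusted p = 0.0463).

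In libraries labelled knockout, Col15a1 measured 1138, 684, 818, 725 and 1051 CPM in adipocytes and 840, 314, 398 and 297 CPM in SVC, with SVC knockout 1 inside the adipocyte range. Col5a3 measured 738, 399, 401, 437 and 419 CPM in adipocytes and 345, 275, 246 and 201 CPM in SVC, with no overlap. Col23a1 measured 13.6, 14.1, 14.1, 15.6 and 8.26 CPM in adipocytes and 12.6, 4.05, 7.91 and 6.25 CPM in SVC, with adipocyte library 5 inside the SVC range.

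The most negative differences with the knockout label were those of Col14a1 at -7.90 ± 0.31, Col22a1 at -7.05 ± 1.60 and Col4a6 at -6.33 ± 0.45 (adjusted p = 5.18e-12, 0.000836 and 1.47e-09, edgeR). Col14a1 measured 0.919, 0.594, 0.948, 0.953 and 0.813 CPM in adipocytes and 227, 415, 243 and 204 CPM in SVC, far apart. Col4a6 measured 0.505, 0.274, 0.903, 0.636 and 0.271 CPM in adipocytes and 76.4, 41.0, 60.1 and 50.4 CPM in SVC. Col22a1 rested on SVC knockout 4: its SVC values were 0.689, 0.424, 0.195 and 52.9 CPM, and its adjusted p with the replicate block was 0.0556. Without that library the log2 difference of Col22a1 was -2.30 (adjusted p = 0.046). Col12a1, a FACIT chain at -0.88 ± 0.33 (adjusted p = 0.0237), was also not called with the block (-0.85, 0.0677) or without adipocyte knockout 4, adipocyte knockout 5 or SVC knockout 2 (adjusted p at most 0.139).

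Whether the genotype effect differed between the male fractions was tested directly. No collagen was called (edgeR, 0 of 35, with 3 genes at an unadjusted p below 0.05, and 0 with DESeq2 and with limma-voom), and 0% of all 17251 tested genes were, of which DESeq2 called 22. The 3 genes of smallest p were Col18a1, with a log2 difference of the effects of 0.65 ± 0.29 (adjusted p = 0.732), the FACIT chain Col16a1 at 1.19 ± 0.54 (adjusted p = 0.735) and Col7a1, the chain of anchoring fibrils, at 1.75 ± 0.82 (adjusted p = 0.747), or 0.84 without SVC control 1. The estimate was above 0 for 26 of 35 genes, with a median of 0.38 against -0.07 over all tested genes.

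The next comparison set female against male adipocytes within the control label. Female control adipocytes had more Col1a1, Col3a1, Col5a2, Col6a1, Col6a2 and Col14a1, without a call for Col1a2, Col5a1 or Col6a3, and less of the type VI chains Col6a5 and Col6a6, with the leading basement membrane chains not called. Of the 27 collagens tested in adipocytes, 8 were higher and 7 lower in females (edgeR, adjusted p below 0.05 over all 14227 genes), against 23.7% of all tested genes higher and 20.1% lower. The median log2 difference was 0.14 over the tested collagens and 0.05 over all tested genes.

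**Figure D3:**
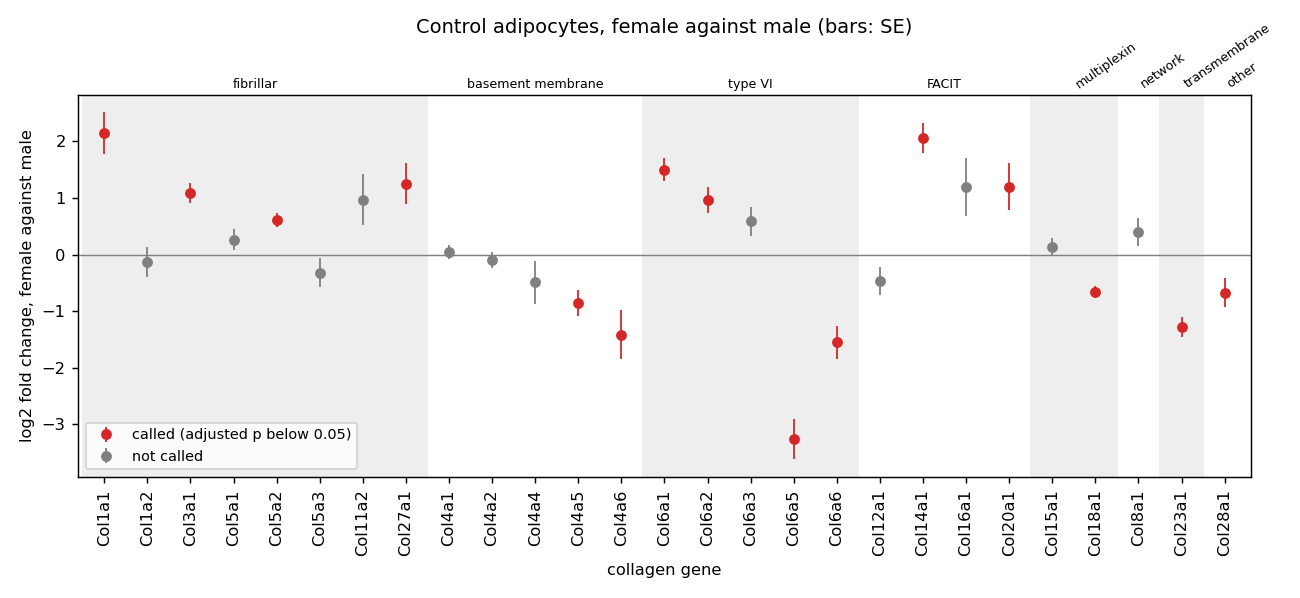
Log2 difference of each tested collagen gene between control female and control male adipocytes, with standard errors, from the edgeR fit of 23 adipocyte libraries. Called genes are marked, with Col1a1 and Col14a1 highest and Col6a5 lowest.

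Among the 8 tested fibrillar chains, 4 were higher in females and none was lower. Col1a1 measured 35.3, 46.6 and 59.0 CPM in males (lowest, median, highest of 6) and 79.6, 194 and 387 CPM in females. The groups did not overlap, and the log2 difference was 2.15 ± 0.37 (adjusted p = 8.86e-05, edgeR). Its partner Col1a2 measured 171, 208 and 333 CPM in males and 125, 241 and 253 CPM in females, with a log2 difference of -0.14 ± 0.26 (adjusted p = 0.698). The ratio of Col1a1 to Col1a2 per length therefore ran from 0.123 to 0.286 in males and from 0.449 to 1.39 in females, with no overlap.

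Col3a1 was also higher in females, at 439, 545 and 683 CPM against 219, 249 and 300 CPM (log2 difference 1.09 ± 0.17, adjusted p = 2.82e-05, edgeR). Col5a2 was at 0.61 ± 0.12 (adjusted p = 4e-04) and Col27a1, a fibrillar chain known from cartilage, at 1.25 ± 0.36 (adjusted p = 0.00749). Both of these had separate groups. Col5a3, the fibrillar chain of highest level per length in male adipocytes, was not called (-0.32 ± 0.26, adjusted p = 0.322).

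Type VI chains divided in both directions. Col6a1 measured 142, 185 and 213 CPM in males and 366, 540 and 724 CPM in females, a log2 difference of 1.501 ± 0.20 with no overlap (adjusted p = 4.06e-06, edgeR). Col6a2 followed at 0.97 ± 0.23 (adjusted p = 0.00204), and Col6a3 was at 0.59 ± 0.26 (adjusted p = 0.0717) and not called.

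Col6a5 measured 10.8, 14.4 and 35.7 CPM in male controls and 1.03, 1.59 and 2.99 CPM in female controls. The groups did not overlap, and the log2 difference was -3.26 ± 0.35 (adjusted p = 2.85e-07, edgeR), the lowest of the 27. Col6a6, its neighbour on chromosome 9, measured 3.85, 4.39 and 11.6 CPM in males and 1.12, 1.964 and 2.96 CPM in females (-1.55 ± 0.29, adjusted p = 0.000181). The highest male value of both came from the same library, control 1, which also had the highest mesothelial marker sum of its group, 97.1 CPM, and the part of those cells was not tested. Per length, Col6a5 was at 0.357 ± 0.184 times Col6a3 in male and 0.0244 ± 0.00474 times in female control adipocytes.

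Of the FACIT chains, Col14a1 was higher in females, at 2.62, 5.73 and 7.47 CPM against 0.768, 1.16 and 2.04 CPM (2.06 ± 0.27, adjusted p = 2.48e-06, edgeR), with no overlap. Col20a1 was called at 1.196 ± 0.42 (adjusted p = 0.0232), and lost the call without male control 5 or female control 4, with an adjusted p of 0.0516 and 0.0634. Col16a1 was at 1.197 ± 0.51 (adjusted p = 0.0615).

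Basement membrane chains fell or were not called. Col4a1 measured 1117, 1187 and 1277 CPM in males and 1072, 1299 and 1354 CPM in females (0.05 ± 0.12, adjusted p = 0.784, 95% interval -0.19 to 0.28). Col4a6 was lower in females, at 0.138, 0.303 and 0.600 CPM against 0.225, 0.816 and 1.85 CPM, which overlapped (-1.41 ± 0.43, adjusted p = 0.0107, edgeR), and Col4a5 was lower by the fit at -0.85 ± 0.23 (adjusted p = 0.00464). Col4a2 was at -0.10 and Col4a4 at -0.49, neither called.

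The multiplexins split: Col18a1 was lower in females, at 128, 136 and 145 CPM against 202, 205 and 234 CPM (-0.66 ± 0.11, adjusted p = 4.67e-05, edgeR, no overlap), and Col15a1 was at 0.14 ± 0.16 (adjusted p = 0.489). Col23a1 was lower at 3.73, 4.16 and 6.26 CPM against 9.05, 11.1 and 12.7 CPM (-1.28 ± 0.17, adjusted p = 3.97e-06, no overlap). Col28a1 was called lower at -0.68 ± 0.26 (adjusted p = 0.0369), and lost the call with limma-voom and without any 1 of 6 libraries (male controls 1, 2 and 4, female controls 2, 3 and 5), with an adjusted p of at most 0.072. The network chain Col8a1 was at 0.40 ± 0.24 (adjusted p = 0.183).

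Markers of other cells were also called between the sexes, where 23.7% of all tested genes were higher in females and 20.1% lower. Macrophage markers were lower in female controls for 5 of 8, at 201 to 471 CPM summed against 440 to 903 CPM, and progenitor and fibroblast markers were higher for 4 of 10, at 477 to 1009 against 488 to 681 CPM. Pericyte and smooth muscle markers were higher for 3 of 8 and lower for 1, at 195 to 514 against 151 to 250 CPM. Skeletal muscle markers were higher for 1 of the 2 tested, at 74.9 to 272 against 31.6 to 69.6 CPM, and Ckm was at 0 in every male control. Schwann cell markers were higher for 3 and lower for 1 of the 4 tested, with sums of 29.5 to 35.3 against 29.6 to 36.8 CPM, and erythroid markers were higher for 2 of 5, at 59.3 to 292 against 29.3 to 104 CPM. The labels name the epididymal depot for females as for males, so a difference in the depots taken cannot be told apart from sex, and the part of other cells was not tested.

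The genotype comparison in male adipocytes called no collagen. The edgeR fit called 0 of 27, with 3 genes at an unadjusted p below 0.05, and DESeq2 and limma-voom called 0 as well. Over all tested genes 0.0703% were called (10 of 14227). The median log2 difference was 0.13 over the tested collagens and 0.02 over all tested genes. Of the 27, 18 were above 0, including all 8 fibrillar chains. Knockout library 1 had a collagen share of 0.683% of its counts, against 0.418 to 0.481% in the other knockouts. Its part in these signs was not tested.

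**Figure D4:**
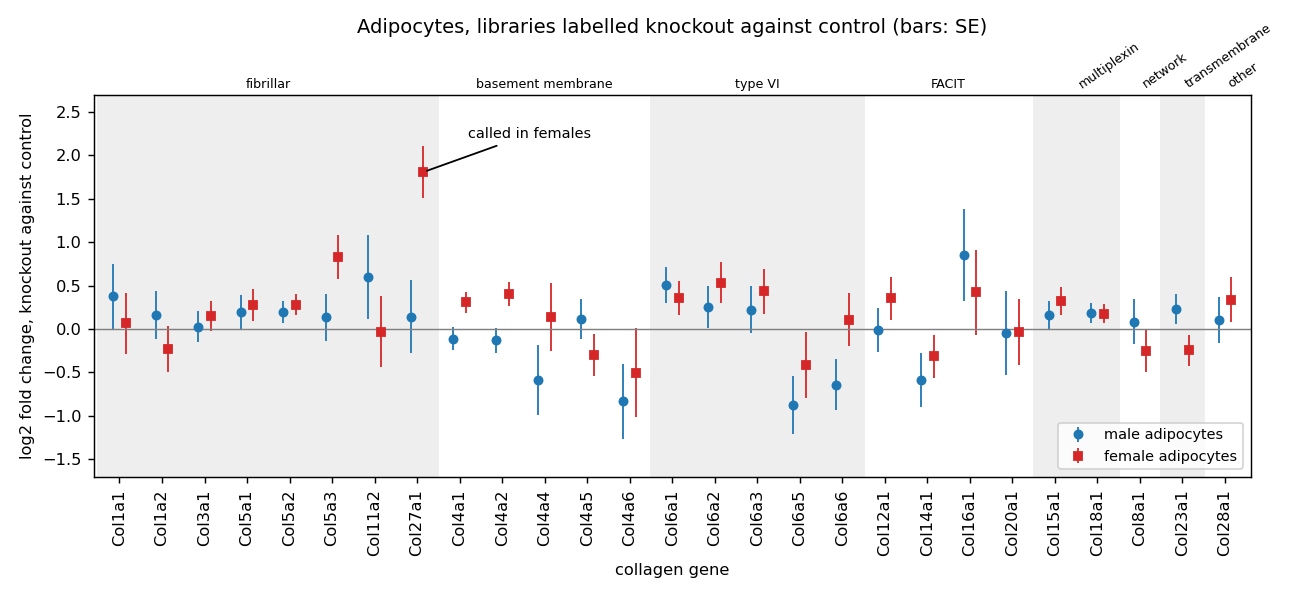
Log2 difference between knockout and control labels in male and female adipocytes, for each collagen gene tested, with standard errors, from the edgeR adipocyte fit. Col27a1 in female adipocytes is the called gene.

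The 3 genes of smallest p were type VI chains. Col6a5 measured 10.8, 14.4 and 35.7 CPM in controls and 9.05, 6.31, 14.7, 13.4 and 5.91 CPM in knockouts (-0.88 ± 0.33, adjusted p = 0.26, edgeR). Col6a1 measured 142, 185 and 213 CPM in controls and 429, 218, 258, 271 and 168 CPM in knockouts (0.50 ± 0.21, adjusted p = 0.306). Col6a6 measured 3.85, 4.39 and 11.6 CPM in controls and 3.54, 3.43, 5.15, 2.95 and 3.12 CPM in knockouts (-0.65 ± 0.29, adjusted p = 0.348). All 3 pairs of groups overlapped. Without male control 1 the estimate was -0.54 for Col6a5 and -0.28 for Col6a6, and without knockout 1 it was 0.28 for Col6a1. Knockout library 1 was the highest of its group for Col6a1, Col6a2, Col5a1, Col5a2 and Col5a3. The same library was also highest for Col1a1, Col3a1, Col4a1, Col4a2, Col15a1 and Col18a1. Mesothelial markers were below 0 for 6 of 6 without a call, at 14.0 to 97.1 CPM summed in controls and 4.92 to 21.5 CPM in knockouts, and erythroid markers for 5 of 5, at 29.3 to 104 and 29.9 to 73.7 CPM. Skeletal muscle sums did not overlap (31.6 to 69.6 against 13.9 to 30.3 CPM), with 1 of 2 tested markers below 0. Pericyte and smooth muscle markers were above 0 for 7 of 8 and Schwann cell markers for 4 of 4 tested. Adipocyte markers were below 0 for 6 of 8, and none of these was called. The part of these cells was not tested.

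In female adipocytes the genotype comparison called 1 collagen, Col27a1, which was higher with the knockout label. This was 1 of 27 tested, against 0.323% of all tested genes higher, and no collagen was lower, against 0.148%. DESeq2 and limma-voom called the same number. Col27a1 belongs to the fibrillar class, with a shorter and interrupted helix, and its mouse and human mutations affect the skeleton.

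Col27a1 measured 0.322, 0.584 and 0.838 CPM in female controls (lowest, median, highest of 6) and 1.22, 1.61 and 3.74 CPM in female knockouts. The groups did not overlap, and the log2 difference was 1.81 ± 0.30 (adjusted p = 0.00382, edgeR). The knockout libraries 3 and 4 were highest, at 2.56 and 3.74 CPM, and without both the difference was 1.37 (adjusted p = 0.0301). In males Col27a1 ran from 0.180 to 0.318 CPM in control and from 0.136 to 0.542 CPM in knockout adipocytes, which overlapped. In SVC it measured 14.1, 16.1 and 8.42 CPM in controls and 12.4, 8.11, 8.40 and 6.02 CPM in knockouts, so each adipocyte library was below each SVC library.

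**Figure D5:**
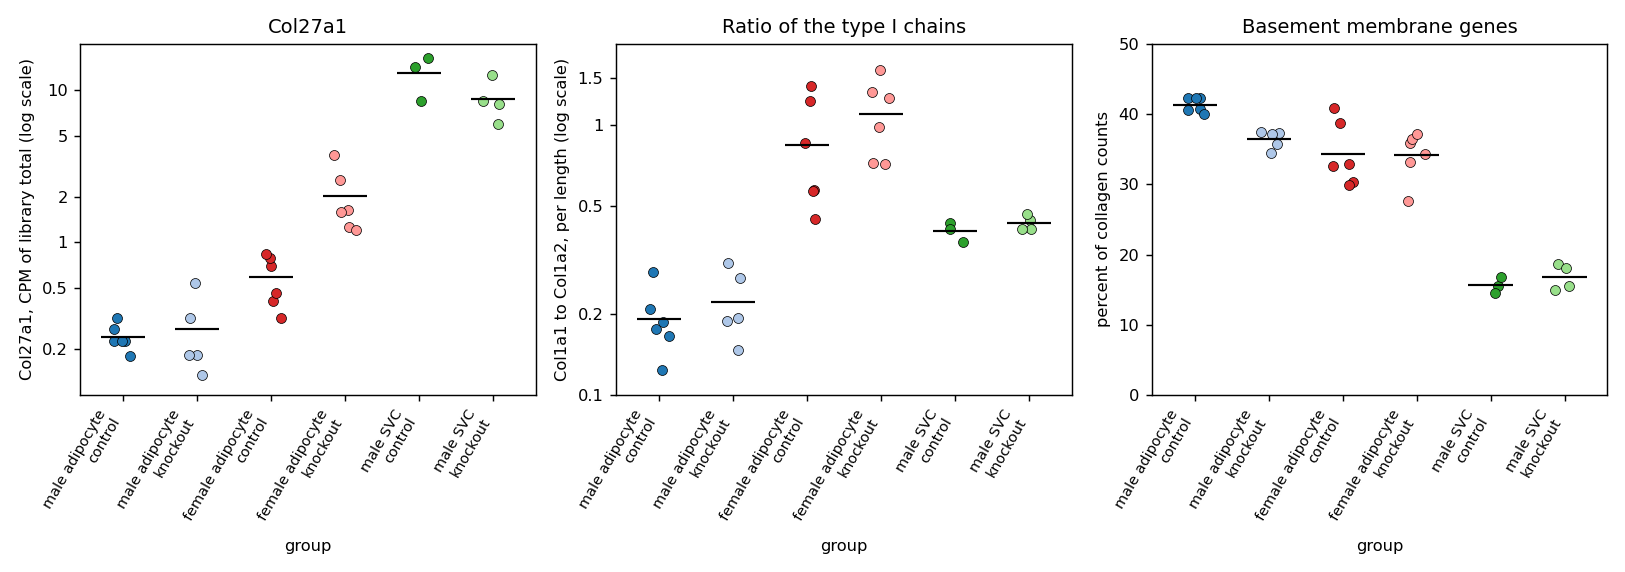
Values in each library for 3 measures: Col27a1 in CPM, the ratio of Col1a1 to Col1a2 per length, and basement membrane chains as a percentage of all collagen counts. Points are libraries and lines are group means. Female knockouts lie above female controls for Col27a1, female adipocytes lie above male adipocytes for the ratio, and SVC lies lowest for the basement membrane share.

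The promoter of Col27a1 is shown because this is the gene called by genotype. The RefSeq window for GRCm38.p6 lies on the plus strand at chr4:63215162-63215461. Capitals mark 2 GC boxes, GGGCGG, read on either strand.
Col27a1: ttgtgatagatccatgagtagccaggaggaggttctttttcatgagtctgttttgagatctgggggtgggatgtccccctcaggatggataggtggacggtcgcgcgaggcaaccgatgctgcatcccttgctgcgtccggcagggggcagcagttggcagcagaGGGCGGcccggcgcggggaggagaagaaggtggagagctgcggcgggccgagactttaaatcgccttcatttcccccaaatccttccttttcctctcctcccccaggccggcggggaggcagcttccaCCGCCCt
A gene was counted where any of its windows held the motif, whatever its number of windows. The comparison set was every gene with a promoter window, with no choice by gene type, whereas the collagen genes are all protein-coding. The GC box was found for 22 of the 35 collagen genes that could be matched (62.9%), against 38.2% of 27025 genes. The core motif of TCF/LEF factors, CTTTGAT, through which β-catenin is known to act, was found for 1 of the 35 (2.86%), Col9a2, against 4.29% of all genes. CCAAT was found for 37.1% against 41.1%, and TATAAA for 14.3% against 15.7%. Both strands were searched, and a match or its absence in these windows is a description.

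The next genes of female adipocytes were not called. Col5a3 measured 157, 329 and 543 CPM in controls and 369, 555 and 908 CPM in knockouts (0.83 ± 0.26, adjusted p = 0.19, edgeR). Col4a2 was at 0.40 ± 0.14 (adjusted p = 0.257), Col4a1 at 0.31 ± 0.12 (0.359), Col5a2 at 0.28 ± 0.12 (0.42) and Col6a2 at 0.53 ± 0.23 (0.422). These 5 and Col27a1 were the 6 genes at an unadjusted p below 0.05, and all of their estimates were above 0. Beside these values, macrophage markers were below 0 for 8 of 8 with 1 called lower, at 61.0 to 256 CPM summed against 201 to 471 CPM in controls. Mesothelial markers were below 0 for 6 of 6 (7.45 to 15.5 against 8.05 to 46.0 CPM) and erythroid markers for 5 of 5 (47.7 to 152 against 59.3 to 292 CPM), without a call. The part of these cells was not tested.

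Whether the genotype effect differed between the sexes was tested in the same fit. No collagen was called (edgeR, 0 of 27, with 3 genes at an unadjusted p below 0.05, and 0 with DESeq2 and limma-voom), against 0.0141% of all tested genes. Col27a1 had a difference of effects of 1.67 ± 0.52 (adjusted p = 0.379), Col4a2 of 0.53 ± 0.20 (adjusted p = 0.451) and Col4a1 of 0.42 ± 0.18 (adjusted p = 0.527). The call of Col27a1 in females is therefore not shown to be particular to them.

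Col4a1 measured 1117, 1187 and 1277 CPM in male controls and 1518, 1039, 1154, 1081 and 897 CPM in male knockouts, against 1072, 1299 and 1354 CPM in female controls and 1284, 1406 and 1939 CPM in female knockouts. Col4a2 measured 595, 698 and 790 CPM in male controls and 921, 525, 640, 580 and 610 CPM in male knockouts, against 573, 634 and 771 CPM in female controls and 683, 794 and 1197 CPM in female knockouts. Both genes overlapped between genotype labels in each sex.

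In male SVC no collagen was called either (edgeR, 0 of 35, with 2 genes at an unadjusted p below 0.05, and 0 with DESeq2 and limma-voom), against 0% of the 16404 tested genes, of which DESeq2 called 76. The estimate was below 0 for 32 of 35 collagens, with a median of -0.27 against 0.04 over all tested genes. The smallest p belonged to Col7a1, at 7.81, 2.13 and 1.63 CPM in controls and 1.06, 1.27, 1.71 and 1.21 CPM in knockouts (-1.46 ± 0.54, adjusted p = 0.968), then to Col16a1, at 105, 83.5 and 57.5 CPM against 65.5, 59.0, 61.1 and 56.9 CPM (-0.38 ± 0.16, adjusted p = 0.968). Col6a5, at 1214, 1781 and 948 CPM against 1047, 718, 991 and 863 CPM, was at -0.50 ± 0.23 (adjusted p = 0.968). All 3 overlapped. Without SVC control 1 the estimate was -0.53 for Col7a1 and -0.23 for Col16a1, and without SVC control 2 it was -0.18 for Col6a5.

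Markers of other cells are given beside these SVC values, and edgeR called none of them. Progenitor and fibroblast markers had an estimate below 0 for 9 of 10, without a call, at 8306 to 10970 CPM summed in controls and 6184 to 8448 CPM in knockouts. Mesothelial markers were below 0 for 6 of 6, at 237 to 470 against 96.3 to 142 CPM. Lymphocyte markers were below 0 for 6 of 6 (84.4 to 146 against 45.6 to 91.6 CPM). Adipocyte markers were above 0 for 8 of 8, without a call, at 983 to 1440 CPM in controls and 1639 to 2168 CPM in knockouts, which did not overlap. Endothelial markers were above 0 for 7 of 8, from 705 to 1422 CPM in controls and from 403 to 3029 CPM in knockouts. Macrophage markers were above 0 for 8 of 8 (4843 to 9177 against 5395 to 9392 CPM). Epithelial markers were above 0 for 2 and below 0 for 2 of the 4 tested. Their sums ran from 67.1 to 411 CPM in controls, with control 1 highest, and from 11.3 to 407 CPM in knockouts. The part of all these cells in the collagen estimates was not tested.

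The proteins that fold, export, trim and bind collagen were followed in the same fits. In male adipocytes no gene of the 6 lists was called by genotype. The smallest p of each list belonged to Tmem38b, an ion channel of the endoplasmic reticulum (0.57, adjusted p = 0.151), Sec13 of the COPII coat (0.36, 0.142), Pcolce2, an enhancer of C-propeptide removal (1.06, 0.316), Fmod, which binds fibrils (-1.30, 0.222), the uptake receptor Mrc2 (0.80, 0.264) and the laminin chain Lamb2 (-0.33, 0.26). Brackets give edgeR log2 differences and adjusted p-values.

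In female adipocytes 1 of 19 folding genes was lower and 1 of 15 fibril-associated genes was higher, against 0.148% of all tested genes lower and 0.323% higher. P4ha2, a prolyl hydroxylase subunit, measured 21.1, 23.5 and 27.1 CPM in controls and 12.0, 16.5 and 18.4 CPM in knockouts, with no overlap (-0.50 ± 0.10, adjusted p = 0.0128, edgeR). Comp, a pentameric protein that binds fibrillar collagens in cartilage and tendon, measured 1.012, 1.82 and 5.09 CPM in controls and 3.29, 7.60 and 38.7 CPM in knockouts, which overlapped (2.61 ± 0.55, adjusted p = 0.0306). In males Comp ran from 0.0901 to 0.950 CPM in controls and from 1.08 to 3.77 CPM in knockouts (1.93 ± 0.68, adjusted p = 0.227), and P4ha2 was at -0.04 ± 0.10 (adjusted p = 0.907). The export, processing, receptor and basement membrane lists had no called gene in females, and no list had one in male SVC or in either difference of effects.

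Between the sexes, 23.7% of all tested genes were higher in female controls and 20.1% lower, and several lists held shares near these. Of 19 folding genes 5 were higher in females, among them the lysyl hydroxylase Plod2 (2.73 ± 0.52) and the collagen chaperone Serpinh1 (0.95 ± 0.18), and 2 were lower. Of 11 processing genes 4 were higher, among them Pcolce2 (2.67 ± 0.43) and the cross-linking enzyme Lox (1.19 ± 0.18), and 2 were lower, among them the C-proteinase Bmp1 (-1.04 ± 0.15). Of 15 fibril-associated genes 6 were higher, with Lum (2.33 ± 0.26) and Thbs2 (2.26 ± 0.52) in front, and 3 were lower, with Fmod at -2.04 ± 0.44. Receptors were higher for 4 and lower for 5 of 12, export genes higher for 2 and lower for 3 of 10, and basement membrane partners lower for 3 of 11, with Lamb2 at -1.03 ± 0.12.

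Between control adipocytes and SVC, 44.2% of all tested genes were lower in adipocytes and 32.8% higher. Processing genes were lower in adipocytes for 13 of 13, from Lox at -1.92 ± 0.19 to Tll2 at -5.94 ± 0.69. Fibril-associated genes were lower for 12 of 16, among them Lum at -6.07 ± 0.21, and higher for 3, Prelp at 1.97, Thbs1 at 1.10 and Sparc at 0.95. Receptors were lower for 10 and higher for 2 of 13, folding genes lower for 9 and higher for 3 of 19, with Serpinh1 higher at 0.96 ± 0.27, and export genes higher for 7 and lower for 2 of 10. Basement membrane partners were lower for 8 of 11, from Lamb2 at -0.55 to the laminin chain Lama2 at -5.95, and the cross-linking peroxidase Pxdn was higher at 1.72 ± 0.28. All of these passed the edgeR threshold in controls.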

How the data were processed

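RNA of 30 libraries was analysed from 2 tables. The authors deposited raw read counts per gene, whole numbers that were used for every test, and log2 values. The latter were regularised logarithms from DESeq2, per the file headers, from -2.36 to 29.3. All 82 of 82 called collagen results had the same sign in them. These values describe the same libraries as the counts, so the shared sign is no separate evidence for the calls. The build was mm39 and the tools STAR 2.7.11a, FastQC 0.12.1 and DESeq2, per the submitters' processing notes. Which annotation, counting program and strand setting were used is not given in the sources used here, so reads of overlapping genes on opposite strands, such as Col4a1 and Col4a2, may not be separable.

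Counts were tested with edgeR 4.0.16 in R 4.3.3 (TMM scaling, filterByExpr with a minimum count of 10, robust quasi-likelihood fits). Benjamini-Hochberg adjustment covered all genes tested, and a gene was called below an adjusted p of 0.05. The fits held the 23 adipocyte, the 7 SVC or the 18 male libraries. Fold changes are log2, with standard errors. Alternatives were DESeq2 1.42.0 (test and size factors), limma-voom (limma 3.58.1), upper-quartile scaling, library totals only, other filters, the compared groups alone, a replicate block and each library left out. Intervals and SDs describe these libraries, each with 20484836 to 22209603 counts, where 1 CPM is at least 20.5 counts. A gene at 0 in every library of a group was set against a floor of 3 counts: Col19a1 and Col9a1 in 11 male adipocyte libraries (0.0124 CPM over the group) and Col10a1 in 7 SVC libraries (0.0203 CPM).

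Of the 44 members, 27 were tested in adipocytes and 35 in the other fits; the 17 untested in adipocytes reached at most 0.769 CPM there. No other per-sample columns were present (0). Replicates of a group differed by more than counting noise (lowest chi-square per degree of freedom 11.9). Members, lists and the rule for named genes were chosen with earlier results of these data known. The rule names, in a genotype comparison, every called member or the 3 of smallest p; between sexes and fractions, the 3 called members of largest change each way and the highest member of each class per length; in each fraction the 5 highest per length; and of each pathway list the called members or that of smallest p, of which the text gives examples. Same-numbered adipocyte and SVC libraries (numbers of the column names) deviated together in knockouts, with correlations of 0.143 to 0.196 over 3 pairs. The block is therefore printed beside calls it changed between fractions. In each other pairing the lowest correlation was below 0, which does not decide whether those libraries are paired. Sequences come from RefSeq (GRCm38.p6, 35 of 44 promoters matched) and GENCODE M21; no coordinates of the files' build were used.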

Additional observations from a re-analysis of the deposited data

Results flagged for a closer look

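A sample was marked where its gap to the nearest of the others, as a share of the group's range, passed Dixon's 95% critical value in groups of 4 to 6 libraries. Of 148 group values looked at, 18 were marked, and chance flags about 1 in 20 groups.

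In male control adipocytes, library 1 was highest for the type VI chains Col6a5, at 35.7 CPM (others 10.8 to 17.5), and Col6a6, at 11.6 CPM (others 3.85 to 4.81). In male knockout adipocytes, library 1 was highest for Col5a1 at 241.7 CPM (others 126 to 158), Col5a2 at 152 CPM (102 to 116), Col5a3 at 738 CPM (399 to 437) and Col6a2 at 420.3 CPM (214 to 263), and its collagen share of all counts was 0.683% (others 0.418 to 0.481%). In the same group library 3 was highest for Col6a6 at 5.15 CPM (others 2.95 to 3.54), library 4 for Col11a2, a chain of cartilage fibrils, at 0.636 CPM (0.184 to 0.274), and library 5 was lowest for Col23a1 at 8.26 CPM (13.6 to 15.6).

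In SVC knockouts, library 4 was highest for Col22a1 at 52.9 CPM (others 0.195 to 0.689), Col20a1 at 11.9 CPM (1.47 to 2.40) and Col6a4 at 9.70 CPM (0.781 to 1.56). Library 1 was highest for Col17a1, a hemidesmosome chain, at 5.10 CPM (1.41 to 1.91). In female knockout adipocytes, library 3 was highest for Col4a1 at 1939 CPM (others 1284 to 1498), Col4a2 at 1197 CPM (683 to 825), Col15a1 at 1240 CPM (936 to 1024) and Col5a1 at 330.1 CPM (135 to 199).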

How the results depend on the processing

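With each library left out in turn, the number of collagens called was 0 to 0 by genotype in male adipocytes, 1 to 1 in female adipocytes, 0 to 0 in SVC, 0 to 0 for both differences of effects, 14 to 17 between sexes, and 32 to 34 between fractions in controls and in knockouts. Under the other settings it was 12 to 17 between sexes, 30 to 36 between fractions in controls and 31 to 40 in knockouts. A filter at a mean of at least 1 CPM gave 0 in female adipocytes, because it removed Col27a1 from the test; the 21 alternatives that tested Col27a1 kept its call, at log2 1.37 to 1.956 and adjusted p from 5.39e-05 to 0.0455. Calls were kept throughout for 29 of 33 genes between fractions in controls, 30 of 33 in knockouts and 13 of 15 between sexes. DESeq2 gave no adjusted p for Col6a4 and Col22a1 between fractions, and these are not counted as lost.

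With library totals only, an alternative chosen after seeing the data, the direction turned for Col18a1 (-0.0411), Col4a1 (-0.33) and Col4a2 (-0.22) between fractions in controls and for Col4a1 (-0.18) and Col4a2 (-0.21) in knockouts; the cause was not tested. Leaving out SVC control 1 with SVC knockout 4, or female knockouts 3 and 4, was also chosen after seeing the data.

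With the replicate block, 0 collagens were called in male and 1 in female adipocytes, 15 between sexes, 0 in SVC, and 30 and 31 between fractions in controls and knockouts. In the adipocyte and SVC fits the block was the replicate number, shared by sexes and genotype labels. In SVC this is not the number of the column name: controls 1 to 3 carry 2, 4 and 5, and knockouts 1 to 4 carry 6, 5, 3 and 4. Male adipocyte knockout 5 carries 6. This block therefore does not check a pairing by column number. Correlations between genotypes and between sexes also used the replicate number, and those between fractions the column number. Between fractions it was the genotype label together with the number of the column name. Elsewhere the lowest correlation of each set of same-numbered pairs was below 0. Correlations ran from -0.281 to 0.317 between male genotypes, -0.033 to 0.689 between female genotypes and -0.278 to 0.484 in SVC. They ran from -0.303 to 0.169 between sexes and -0.05 to 0.295 between control fractions. The female genotype pairs were at 0.314, 0.168, -0.033, 0.581, 0.689 and 0.459. Libraries with different numbers were not compared, so whether the numbers pair these libraries was not decided. Groups of 3 to 6 libraries limit what the genotype comparisons could call, and genes near 1 CPM rest on about 20 counts a library.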
